A study of Mus musculus with 10 samples.

Results

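Expression of 10 genes of the circadian clock was followed in mouse skin by polyA mRNA sequencing. Members were all rows of the deposited tables that carry the symbols Arntl, Npas2, Per1, Per2, Per3, Cry2, Dbp, Hlf, Bhlhe40 and Bhlhe41, which gave 10 genes of 20611 listed. All 10 had enough counts to be tested, among 14861 genes that did. The comparison was between 5 Klk6+ mice and 5 WT mice, with 3 males (replicates 1 to 3) and 2 females (replicates 4 and 5) in each genotype and 1 library per mouse.

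Klk6+ mice carried both a K5-tTA transgene, a tetracycline transactivator driven by the bovine keratin 5 promoter in keratinocytes and some other stratified epithelia, and a Tetos-Klk6 transgene encoding mouse Klk6 with a Myc/His tag. Klk6 encodes a secreted trypsin-like protease, and this Tet-off transgene is on when doxycycline is absent. WT mice were littermates with neither transgene or with 1 of them, so the WT group may mix these genotypes. The Tetos-Klk6 transgene is not expressed without the transactivator. Both lines were backcrossed to C57BL/6, and the matings were kept on doxycycline. Per the labels' protocols, Klk6+ mice received doxycycline chow again at 10 to 11 weeks of age, shortly before they stopped eating and became moribund, and tissues were taken at 14 to 16 weeks. Doxycycline turns the transgene off, and whether the sequenced skin was taken before or after its return is not clear from the labels. The hour of collection, the body site of the skin and any batch were not given in the sources used here. A lower level of a rhythmic transcript therefore cannot be told apart from a sampling hour that differed between the genotypes. Nor can genotype be told apart from food intake, illness or the doxycycline return, which the labels give for Klk6+ mice only.

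The clock is a feedback loop of transcription factors that runs in nearly every cell. BMAL1 (encoded by Arntl) pairs with CLOCK or with its relative NPAS2 and binds E-box DNA elements in the Per and Cry genes, whose proteins return to the nucleus and inhibit that pair. The same activators drive Dbp, Nr1d1 and Nr1d2; the REV-ERB proteins made from Nr1d1 and Nr1d2 repress Arntl, so that in most tissues Arntl peaks about opposite in phase to Dbp. DBP, HLF and TEF are related factors that bind D-box elements and pass the rhythm to output genes, and BHLHE40 and BHLHE41 (DEC1 and DEC2) repress at E-boxes. In skin the clock is known to time keratinocyte division and hair growth.

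Total counts were 32798416 to 41970272 per WT library and 26521019 to 39796511 per Klk6+ library, so that 1 count was worth 0.0230 to 0.0373 CPM (counts scaled to library size). Klk6 ranged between 12.7 and 26.5 CPM among WT mice and between 10293 and 14773 CPM among Klk6+ mice, as the genotype labels imply, and transgene and endogenous transcripts share the symbol. The first principal component of the libraries (81.0% of the variance) set WT libraries (-89.1 to -57.7) apart from Klk6+ libraries (59.8 to 83.2). On the second principal component (6.78% of the variance) Klk6+ 5 and Klk6+ 3 lay at 37.2 and 22.3. The other Klk6+ libraries lay apart from them (-27.3 to -1.11), and WT libraries spread from -27.0 to 18.8. Results were also computed without both Klk6+ 5 and Klk6+ 3, which changed no call of a member. Summed levels of several cell type marker lists did not overlap between the genotypes. The summed level of 16 skeletal muscle genes lay between 62869 and 94806 CPM among WT mice and between 4847 and 9795 CPM among Klk6+ mice. For 10 keratinocyte genes it lay between 7006 and 19561 CPM among WT mice and between 23894 and 34993 CPM among Klk6+ mice.

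Positions are those of GENCODE M21 (GRCm38). Arntl is at chr7:113207465-113314126 and Dbp at chr7:45705088-45710203, both on the plus strand, Npas2 is at chr1:39193731-39363236 on plus and Per2 at chr1:91415982-91459324 on minus. Per1 is at chr11:69095217-69109960 on plus and Hlf at chr11:90336536-90390895 on minus, and Per3 is at chr4:151003652-151044665 and Cry2 at chr2:92403646-92434043, both on minus. Bhlhe40 is at chr6:108660629-108666925 on plus and Bhlhe41 at chr6:145858243-145865558 on minus. The library kit does not mark strand, so reads from genes that overlap on opposite strands cannot be separated. Of the exon bases of Dbp, 18.0% are shared with Sphk2, and of those of Bhlhe41, 19.0% with Gm43909. The share was 4.67% for Cry2, 2.51% for Bhlhe40 and 0.439% for Arntl, each with another gene, and 0% for the other members.

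Stretches upstream of Per1, Per3 and Bhlhe41 are printed because these genes were lower in Klk6+ together and their RefSeq promoter windows (GRCm38.p6, 250 bases before to 50 after each start) hold E-box or D-box letters, the elements bound by the activators and by DBP. Of the 10 members 8 had an entry, all but Per2 and Bhlhe40. Only bases outside annotated exons are shown, 5′ to 3′ on the gene's strand, with E-box and D-box letters in capitals. The first lies at chr11:69098699-69098947 (plus strand), before a start inside the Per1 gene. The second is chr4:151044666-151044915 (minus strand) and the third chr6:145865559-145865670 (minus strand).
Per1: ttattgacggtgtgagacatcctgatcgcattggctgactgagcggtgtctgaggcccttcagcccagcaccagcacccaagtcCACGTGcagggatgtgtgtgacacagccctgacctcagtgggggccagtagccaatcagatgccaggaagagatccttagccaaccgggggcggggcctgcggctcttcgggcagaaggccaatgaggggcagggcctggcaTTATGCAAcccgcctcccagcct
Per3: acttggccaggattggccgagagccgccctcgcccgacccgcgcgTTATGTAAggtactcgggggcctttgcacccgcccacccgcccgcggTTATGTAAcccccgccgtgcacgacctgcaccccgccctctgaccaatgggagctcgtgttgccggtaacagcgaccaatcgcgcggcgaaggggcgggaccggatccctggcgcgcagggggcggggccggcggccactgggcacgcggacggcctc
Bhlhe41: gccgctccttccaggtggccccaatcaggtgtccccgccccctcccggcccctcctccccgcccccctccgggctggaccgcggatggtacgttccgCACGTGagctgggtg
In Per1 the E-box (CACGTG) begins 166 bases and the D-box (TTATGNAA, where N is any base) 24 bases before the start. In Per3 D-boxes begin 205 and 158 bases before the start, and in Bhlhe41 an E-box begins 153 bases before it. Both strands were searched, and the motifs do not contain each other. The E-box letters occurred in 2 of the 8 members (Per1 and Bhlhe41) and in 7.15% of 32851 windows of the table, and the D-box letters in 2 (Per1 and Per3) and in 3.38%. The 8 members have 10 windows, since Arntl and Per1 have another start each. Members are counted by gene and the shares by window, so the 2 are not on the same scale. The related letters CACGTT were in Cry2 alone (4.68% of all windows), and the ROR half-site AGGTCA, the core of the element read by ROR and REV-ERB proteins, in Arntl and Per1 (16.3% of all windows). Neither E-box nor D-box letters were in the windows of Dbp, Hlf and Cry2, which were also lower, or in the other Per1 window. Arntl, which was higher, and Npas2, which was not called, had neither as well. Among the other loop genes, E-box letters were in windows of Cry1 (higher), Tef (lower) and Ciart (not called). The letters thus did not follow the direction of change. A match of letters is a description of the window and not a binding site.

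Most of the 10 clock members were lower in Klk6+ skin, and Arntl was higher. By edgeR's quasi-likelihood test with adjustment over all genes tested, 7 of the 10 members were lower in Klk6+ (adjusted p below 0.05), 1 was higher and 2 were not called. Of all genes tested, 35.1% were called lower and 37.7% higher, so single calls are common in this comparison. All 7 were at least 2-fold lower, as 20.5% of all genes tested were. The median log2 fold change of the 10 members was -1.73, beside 0.0401 over all genes tested. The members were chosen with earlier results of these data known, so this difference only describes them. For 10 other genes of the loop, given below, the median was -0.30. In those 7 genes every Klk6+ library lay below every WT library, as in 27.0% of all genes tested, and for 0 members did every Klk6+ library lie above every WT library, as in 30.1%.

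**Figure D1:**
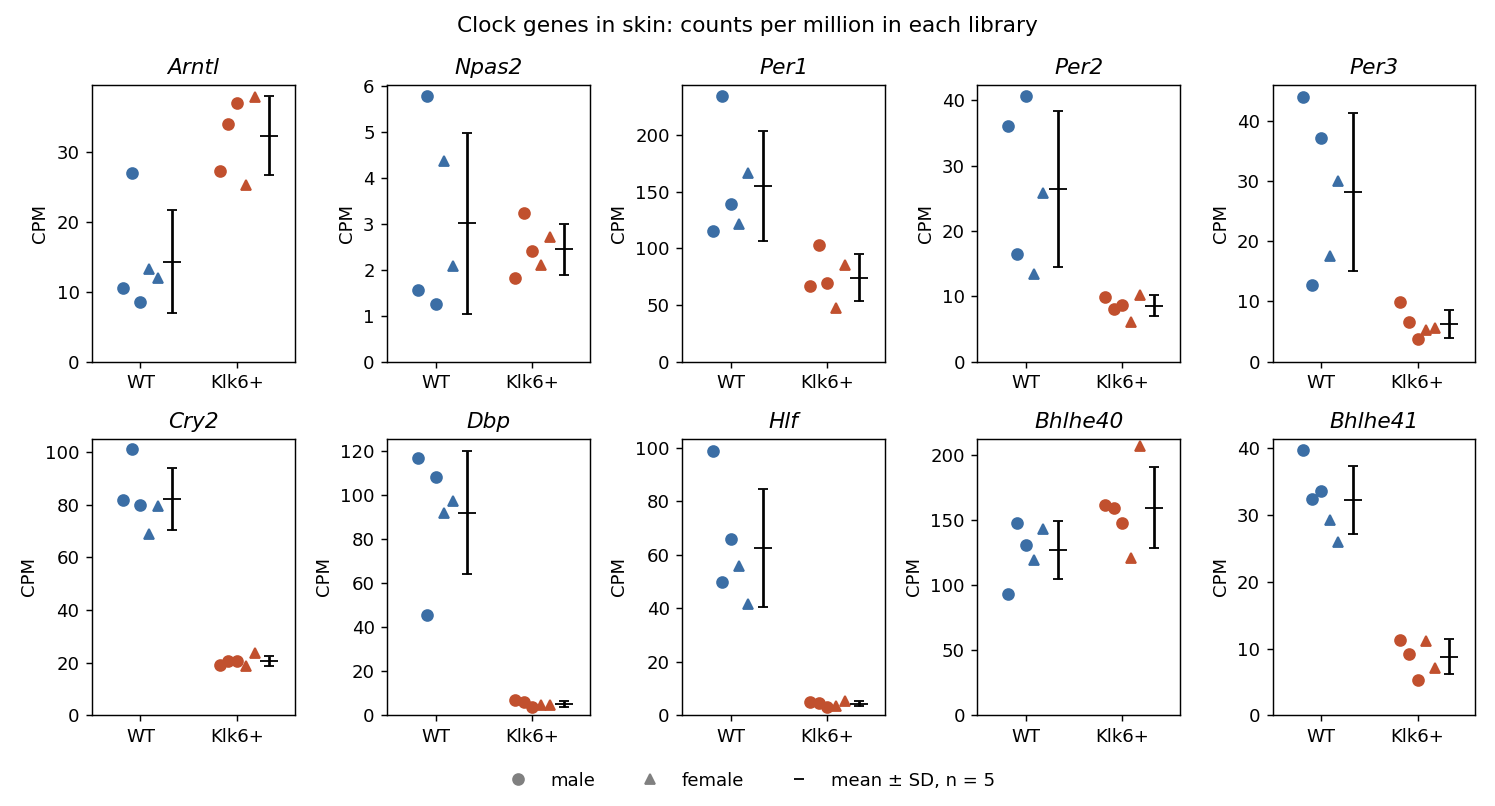
CPM (linear axes from 0) of the 10 clock genes in each of 5 WT and 5 Klk6+ libraries; circles are males, triangles females, and the bars beside them give mean ± SD. Klk6+ points lie below all WT points for Per1, Per2, Per3, Cry2, Dbp, Hlf and Bhlhe41, and overlap with WT for Arntl, Npas2 and Bhlhe40.

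Of the activator arm, Arntl was higher in Klk6+ and Npas2 was not called. Arntl, which encodes BMAL1, stood at 10.6, 27.0, 8.52, 13.2 and 12.0 CPM in WT 1 to WT 5 and at 27.3, 34.0, 37.0, 25.3 and 37.8 CPM in Klk6+ 1 to Klk6+ 5. WT 2 stood far above the other WT mice and above Klk6+ 4, and the other 4 WT mice were below all Klk6+ mice. In FPKM, the level per transcript length, Arntl did not overlap, with 8.26 in WT 2 and 8.56 in Klk6+ 4. The mean rose from 14.3 ± 7.34 to 32.3 ± 5.68 CPM (SD, n = 5 each), 2.27-fold by the model (log2 fold change 1.18 ± 0.29, SE; edgeR adjusted p = 0.00401). Without WT 2 the log2 fold change was 1.56 (adjusted p = 7.81e-05). Npas2, which encodes the stand-in for CLOCK, stood at 1.56, 5.78, 1.26, 4.36 and 2.09 CPM in WT and 1.81, 3.24, 2.40, 2.10 and 2.72 CPM in Klk6+. All 5 Klk6+ mice lay inside the WT range, which WT 2 and WT 4 stretched upward. The log2 fold change was -0.30 ± 0.42 (edgeR adjusted p = 0.541) and turned to 0.22 without WT 2 (adjusted p = 0.598), on 42 to 240 counts per library.

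The Per genes, which encode the period proteins of the inhibitor complex, were all lower in Klk6+. Per1 stood at 115, 235, 139, 122 and 167 CPM in WT and at 67.0, 103, 69.3, 47.7 and 85.1 CPM in Klk6+. No library crossed over, but the lowest WT mouse was only 1.12 times the highest Klk6+ mouse. Per1 was 2.10-fold lower in Klk6+ (-1.07 ± 0.24, edgeR adjusted p = 0.00216).

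Per2 stood at 36.0, 16.4, 40.6, 13.4 and 25.8 CPM in WT and at 9.89, 8.01, 8.71, 6.08 and 10.2 CPM in Klk6+. WT 2 and WT 4 were near the Klk6+ mice, and the lowest WT value was 1.31 times the highest Klk6+ value. Per2 was 3.01-fold lower (-1.59 ± 0.29, edgeR adjusted p = 0.000593). Per3 stood at 43.9, 12.7, 37.1, 17.5 and 29.9 CPM in WT and at 9.92, 6.65, 3.82, 5.22 and 5.66 CPM in Klk6+. Again WT 2 and WT 4 were the low WT mice, and the smallest ratio between the genotypes was 1.28. Per3 was 4.50-fold lower (-2.17 ± 0.36, edgeR adjusted p = 0.000325).

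Cry2, which encodes the cryptochrome partner of the period proteins, showed the tightest values of the set. It stood at 81.9, 101, 79.8, 68.9 and 79.4 CPM in WT and at 19.0, 20.8, 20.7, 18.6 and 23.5 CPM in Klk6+. The genotypes were well apart, with the lowest WT mouse 2.93 times the highest Klk6+ mouse. Cry2 was 4.0-fold lower in Klk6+ (-2.0 ± 0.11, edgeR adjusted p = 4.67e-07), from a mean of 82.2 ± 11.8 to 20.5 ± 1.93 CPM (SD, n = 5 each).

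Dbp and Hlf, the D-box output factors, had the 2 largest differences of the set. Dbp stood at 117, 45.5, 108, 91.9 and 97.2 CPM in WT and at 6.83, 6.17, 3.61, 4.69 and 4.58 CPM in Klk6+. WT 2 was far below the other WT mice, yet it was 6.67 times the highest Klk6+ mouse. Dbp was 17.8-fold lower in Klk6+ (-4.16 ± 0.29, edgeR adjusted p = 1.18e-06), and was the 1 member at least 16-fold lower and called, as 0.646% of all genes tested were. Sphk2, the opposite-strand gene that shares exon bases with Dbp, ranged between 56.0 and 79.0 CPM among WT mice and between 65.0 and 108 CPM among Klk6+ mice (0.38 ± 0.16, edgeR adjusted p = 0.0507). In FPKM the means of Sphk2 went the other way, 28.5 ± 4.79 in WT and 23.5 ± 5.11 in Klk6+ (SD, n = 5 each). Its part in the counts given to Dbp, 123 to 241 per Klk6+ library, was not tested.

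Hlf stood at 98.7, 49.9, 66.1, 56.0 and 41.7 CPM in WT and at 5.10, 4.60, 3.11, 3.64 and 5.37 CPM in Klk6+. It had the widest gap between genotypes, the lowest WT mouse being 7.76 times the highest Klk6+ mouse. Hlf was 14.1-fold lower (-3.82 ± 0.26, edgeR adjusted p = 9.93e-07). It has no annotated exon overlap, and Klk6+ libraries held 118 to 180 counts of it.

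The repressor pair did not move together. Bhlhe40, which encodes DEC1, stood at 93.0, 148, 131, 119.6 and 143 CPM in WT and at 162, 159, 148, 121 and 207 CPM in Klk6+. The ranges overlapped, since Klk6+ 4 lay among the WT mice and 3 WT mice lay inside the Klk6+ range. Its log2 fold change was 0.33 ± 0.16 (edgeR adjusted p = 0.0906), and it was called without Klk6+ 4 (0.37, adjusted p = 0.0433). Bhlhe41, which encodes DEC2, stood at 39.7, 32.3, 33.6, 29.3 and 26.0 CPM in WT and at 11.3, 9.20, 5.29, 11.1 and 7.04 CPM in Klk6+. The lowest WT mouse was 2.31 times the highest Klk6+ mouse. Bhlhe41 was 3.64-fold lower (-1.87 ± 0.21, edgeR adjusted p = 2.46e-05), and its overlap with Gm43909 makes that size uncertain.

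**Figure D2:**
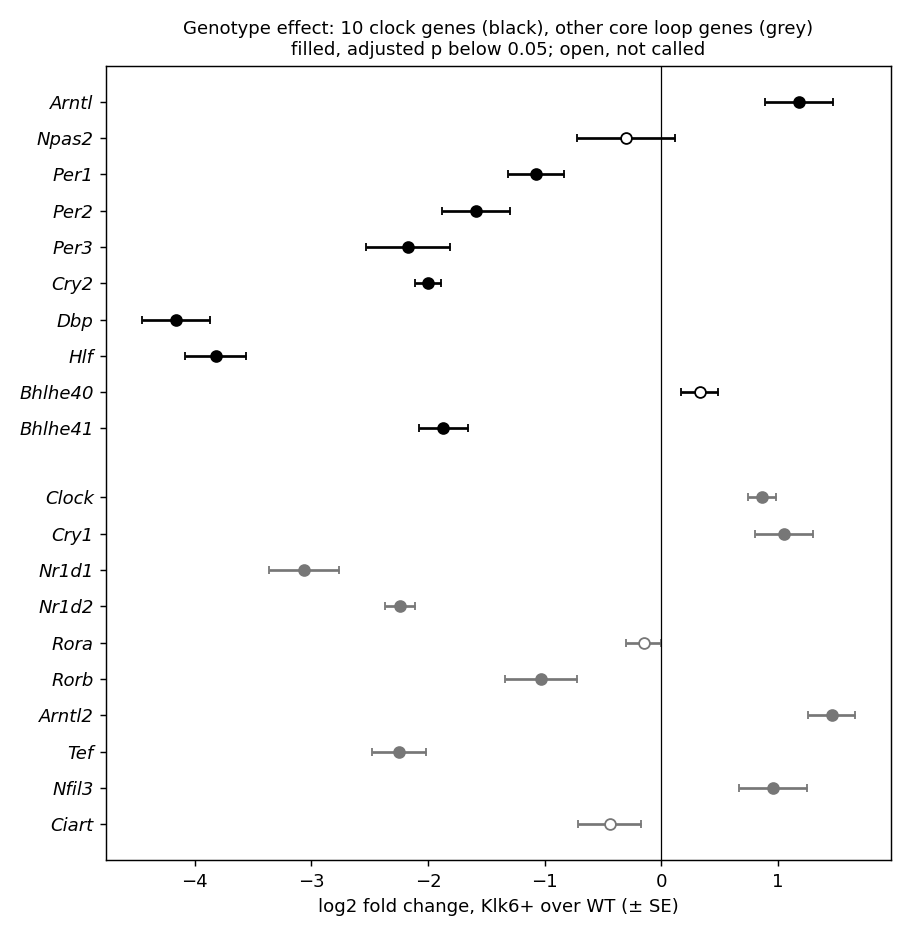
Log2 fold change of Klk6+ over WT (± SE, edgeR with sex as covariate, 5 mice per genotype) for the 10 clock genes in black and 10 other core loop genes in grey; filled points have adjusted p below 0.05. Dbp (-4.16) and Hlf (-3.82) lie farthest below 0, and Arntl (1.18) is the filled black point above it.

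The order of the genes by level per transcript length (FPKM) differed between the genotypes as a description. In WT, Dbp came first at 53.6 ± 16.8 FPKM (mean ± SD, n = 5), followed by Bhlhe40 (37.9 ± 5.97), Per1 (29.7 ± 8.41), Cry2 (18.5 ± 2.27) and Hlf (9.85 ± 3.66). Bhlhe41 (4.76 ± 0.800), Arntl (4.52 ± 2.18), Per3 (4.19 ± 1.99) and Per2 (4.03 ± 1.83) had overlapping FPKM, and Npas2 was last at 0.642 ± 0.407. Neighbours in this order overlapped between mice except at 3 steps, from Per1 to Cry2, from Hlf to Bhlhe41 and from Per2 to Npas2.

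In Klk6+, Bhlhe40 came first at 48.1 ± 9.85 FPKM, then Per1 (14.4 ± 3.69), Arntl (10.4 ± 1.73), Cry2 (4.67 ± 0.459) and Dbp (3.00 ± 0.716). Per2 (1.32 ± 0.257), Bhlhe41 (1.31 ± 0.405), Per3 (0.935 ± 0.340), Hlf (0.691 ± 0.157) and Npas2 (0.531 ± 0.110) followed, each overlapping with the next. The steps from Bhlhe40 to Per1, from Arntl to Cry2, from Cry2 to Dbp and from Dbp to Per2 had no overlap. Dbp thus came first in WT and after Cry2 in Klk6+, while Arntl came after Bhlhe41 in WT and before Cry2 in Klk6+.

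Ratios within a mouse do not depend on the scaling of its library. The FPKM of Arntl over that of Dbp was 0.0492, 0.324, 0.0432, 0.0801 and 0.0683 in WT and 2.21, 3.09, 5.69, 2.99 and 4.56 in Klk6+. Dbp was above Arntl in 5 of 5 WT mice and below it in 5 of 5 Klk6+ mice, and WT 2 was the WT mouse nearest to equal levels. Arntl over Cry2 was 0.150 to 0.375 in WT and 1.94 to 2.56 in Klk6+, and Arntl over Per2 was 0.437 to 3.43 and 5.76 to 8.99. The repressor pair, Bhlhe40 over Bhlhe41, had ratios of 4.74 to 11.2 in WT and 22.0 to 59.7 in Klk6+. None of these ratios overlapped between the genotypes, and since they were formed from genes whose differences are given above they add no separate evidence.

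**Figure D3:**
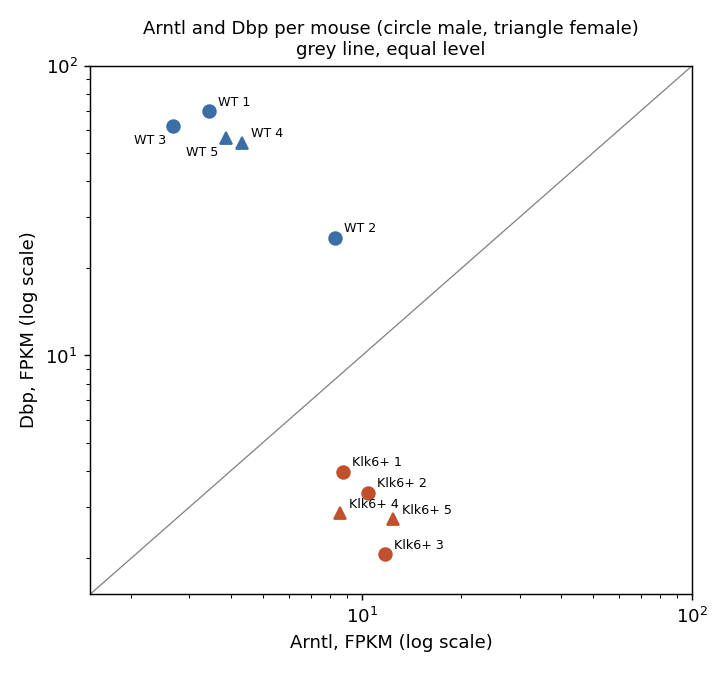
FPKM of Arntl (x) and Dbp (y) in each mouse, both axes on log scales; the grey line marks equal FPKM, circles are males and triangles females. The 5 WT mice lie above the line and the 5 Klk6+ mice below it, with WT 2 nearest to the line among WT.

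Spread between mice of 1 genotype was wide in WT for several members. The highest WT mouse had 4.60 times the Npas2 of the lowest, 3.46 times the Per3, 3.17 times the Arntl, 3.03 times the Per2 and 2.58 times the Dbp, where the median over 14729 genes tested with no library at 0 was 1.52. Among Klk6+ mice the ratios were 1.79 for Npas2, 2.60 for Per3, 1.49 for Arntl, 1.68 for Per2 and 1.89 for Dbp, with a median of 1.47 over all those genes. The ratio was larger in WT for 7 of 10 members and for 53.8% of all those genes. Per1, Bhlhe40 and Bhlhe41 were the members with the wider ratio in Klk6+ (2.15 against 2.04, 1.71 against 1.59, and 2.13 against 1.52).

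The WT mice also fell in similar orders for several members, an order chosen after the values were seen. For Per2, Per3 and Dbp, WT 1 and WT 3 were highest, WT 5 came next and WT 2 and WT 4 were lowest, an order that 3.12% of all genes tested share. Arntl and Npas2 showed its reverse, shared by 2.11% of all genes. Outside the members, Cry1, Nr1d2 and Tef had the first order and Nr1d1 the second, while Clock, Rora, Rorb, Arntl2, Nfil3 and Ciart had neither. The log2 CPM of WT 2 minus the WT mean was 1.04 for Arntl, 1.19 for Npas2, -1.01 for Per3 and -0.94 for Dbp. Per1, Cry2 and Bhlhe40, all highest in WT 2, went with neither order, and nor did Hlf and Bhlhe41. Whether the hour of collection moves with this order was not tested, since no hour was given.

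No 1 order of the Klk6+ mice held for all members, and the share of all genes with a given order was counted only in WT. The Klk6+ order was the same for Dbp and the loop gene Tef. It was also the same for Cry2 and the loop genes Nr1d1 and Nfil3. Klk6+ 4 was the lowest Klk6+ mouse for Arntl, Per1, Per2, Cry2 and Bhlhe40, while Klk6+ 3 was lowest for Per3, Dbp, Hlf and Bhlhe41. Klk6+ 5 was highest for Arntl, Per2, Cry2, Hlf and Bhlhe40, so it was high for genes of both arms of the loop.

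**Figure D4:**
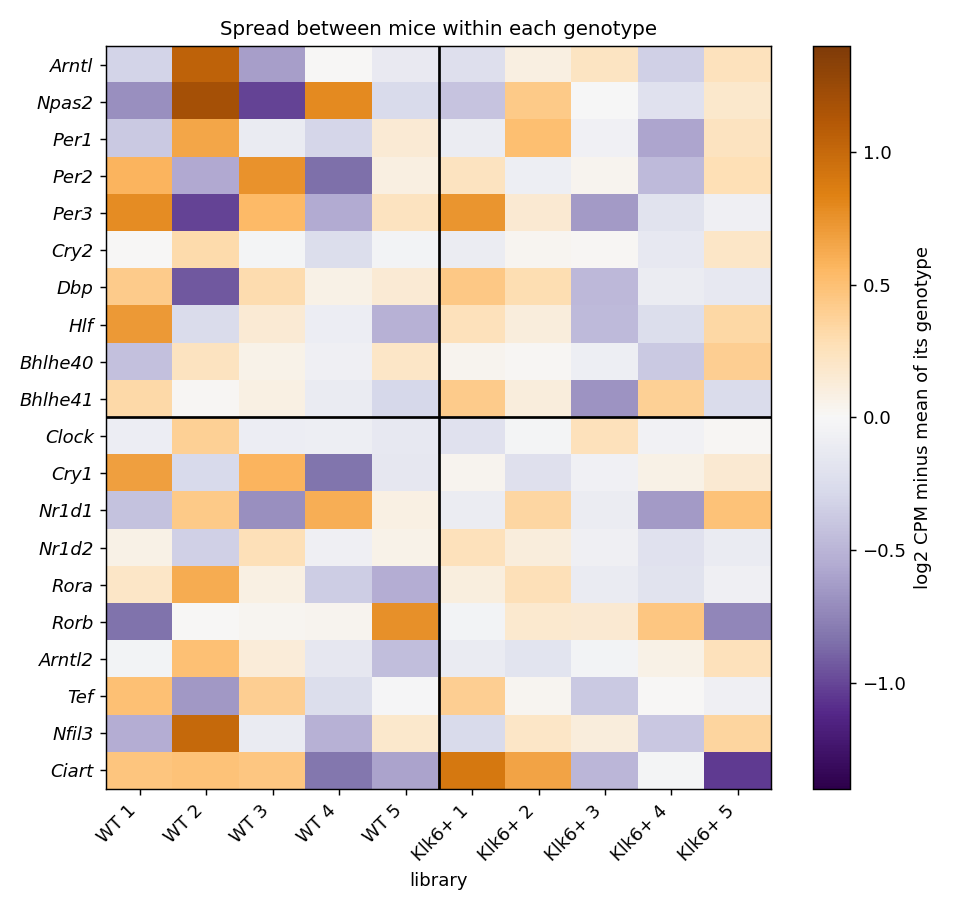
Colour gives each library's log2 CPM minus the mean of its genotype (orange higher, purple lower) for the 10 clock genes above the black line and the other core loop genes below it, with WT libraries left and Klk6+ libraries right of the vertical line. WT 2 is orange for Arntl (1.04) and Npas2 (1.19) and purple for Per3 (-1.01) and Dbp (-0.94).

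The genotype difference was present in each sex. In males 7 members were called lower and 1 higher (31.0% and 33.4% of all genes tested), and in females 7 and 1 (28.4% and 31.2%). The same 8 members were called in males, in females and over all libraries. The median log2 fold change of the 10 members was -1.92 in males and -1.44 in females. Dbp differed by -4.03 ± 0.38 in males and -4.35 ± 0.47 in females, and Hlf by -4.07 ± 0.32 and -3.44 ± 0.38 (edgeR adjusted p at most 0.000104 for both genes in both sexes). For Arntl the values were 1.09 ± 0.39 (adjusted p = 0.0340) and 1.32 ± 0.48 (adjusted p = 0.0394), for Per1 they were -1.03 ± 0.32 and -1.12 ± 0.39, and for Per2 -1.80 ± 0.37 and -1.26 ± 0.45.

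These values borrow the spread of all 10 libraries. With the male libraries alone Arntl was 1.04 and not called (adjusted p = 0.0625). With the female libraries alone Per1 (-1.13, adjusted p = 0.0529) and Per2 (-1.28, adjusted p = 0.0663) were not called.

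No difference between the sexes was detected for the members at this number of mice. For the genotype by sex interaction edgeR called 0 of 10 members (0% of all genes tested), 0 had an unadjusted p below 0.05, and DESeq2 and limma-voom called 0 as well. The interaction terms (female minus male genotype effect) ran from -0.32 ± 0.55 for Dbp to 0.63 ± 0.46 for Hlf and their SE ran from 0.21 to 0.90, which limits what could be detected. For sex itself edgeR called 0 members (0.0404% of all genes tested), again with 0 at an unadjusted p below 0.05 and 0 by DESeq2 and limma-voom.

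Other genes of the same loop moved both ways. Of 10 tested, 4 were called higher and 4 lower in Klk6+, with a median log2 fold change of -0.30. These counts are near the shares of all genes tested, 37.7% called higher and 35.1% lower. In 3 of the higher and 3 of the lower genes the genotypes did not overlap, also near the shares of all genes (30.1% and 27.0%). The REV-ERB genes, direct targets of BMAL1 and repressors of Arntl, were lower, with Nr1d1 between 103 and 256 CPM in WT and between 13.0 and 28.5 CPM in Klk6+ (-3.06 ± 0.30, edgeR adjusted p = 8.3e-06). Nr1d2 lay between 139 and 211 CPM in WT and between 32.3 and 44.5 CPM in Klk6+ (-2.24 ± 0.13, edgeR adjusted p = 5.1e-07). Tef, the third D-box activator beside Dbp and Hlf, ranged between 168 and 372 CPM among WT mice and between 43.4 and 74.6 CPM among Klk6+ mice (-2.25 ± 0.23, edgeR adjusted p = 1.09e-05).

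The higher genes were Clock, the partner of BMAL1, between 43.9 and 63.5 CPM among WT mice and between 76.7 and 106 CPM among Klk6+ mice (0.86 ± 0.12, edgeR adjusted p = 0.00011), and the BMAL1 relative Arntl2 (1.46 ± 0.20, edgeR adjusted p = 8.45e-05). Cry1, the paralogue of Cry2, was higher too, between 8.05 and 22.9 CPM among WT mice and between 26.4 and 34.2 CPM among Klk6+ mice (1.05 ± 0.25, edgeR adjusted p = 0.00335). The cryptochrome genes thus moved in opposite directions. Nfil3, a repressor at D-boxes, was higher (0.96 ± 0.29, edgeR adjusted p = 0.0137) with overlap between the genotypes, and was not called without Klk6+ 5 (0.73, adjusted p = 0.0522). Rorb, of the ROR family that activates Arntl, was scarce and lower (-1.03 ± 0.31, edgeR adjusted p = 0.0121). Rorb was not called in males alone (-0.79, adjusted p = 0.0821), in females alone (-1.52, adjusted p = 0.0717) or by limma-trend on FPKM plus 1 (-0.07, adjusted p = 0.0935), which left 3 lower loop genes called in each of these. Rora was -0.15 ± 0.15 (edgeR adjusted p = 0.369). Ciart, an inhibitor of the BMAL1 complex, was -0.44 ± 0.27 (edgeR adjusted p = 0.157) and was called lower without Klk6+ 4 (-0.71, adjusted p = 0.0354).

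Genes that modify clock proteins moved both ways. Of 13 tested, 6 were called higher, 3 lower and 4 not, with a median of 0.17. Over all genes tested, 37.7% were called higher and 35.1% lower. Btrc, a ubiquitin ligase subunit that acts on period proteins, was lower (-1.33 ± 0.09), as was Usp2, a deubiquitinase with rhythmic expression (-1.21 ± 0.17). Csnk1d, the casein kinase that phosphorylates period proteins, was 0.50 ± 0.08 and Nono, a partner of the period proteins, 0.49 ± 0.07, both higher (edgeR adjusted p at most 0.000194 for these 4).

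Among 11 genes that are rhythmic in many tissues, 5 were called higher, 5 lower and 1 not, with a median of -0.13. All genes tested were split as well, with 37.7% called higher and 35.1% lower. Ccrn4l, the deadenylase-like nocturnin gene, was higher (2.40 ± 0.27), and so was Por, the cytochrome P450 reductase gene (0.68 ± 0.08). Klf9 (-2.06 ± 0.21) and Tsc22d3 (-1.91 ± 0.19), both also induced by glucocorticoids, were lower (edgeR adjusted p at most 4.02e-05 for these 4). These 11 genes had no common direction in these libraries, and other output genes were not examined as a list.

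Markers of other cell types moved with the genotype, and the share they take in the differences of the clock genes was not tested. In bulk skin fewer cells of a type and less RNA per cell cannot be told apart. All 16 skeletal muscle genes tested were lower in Klk6+ (median -3.24), a tissue in which Dbp and Hlf are also expressed. All 10 adipocyte genes were lower (3045 to 4160 CPM summed in WT, 1211 to 1935 CPM in Klk6+), and so were all 10 fibroblast genes (12838 to 41685 CPM against 4790 to 9717 CPM) and all 10 macrophage genes (1184 to 5111 CPM against 336 to 1255 CPM).

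Of the endothelial genes 9 of 10 were lower (445 to 619 CPM against 258 to 351 CPM), and of 8 T cell genes 5 were lower and 1 higher (110.3 to 181 CPM against 74.6 to 132 CPM). Neutrophil genes were higher in 8 of 9 cases (55.0 to 84.5 CPM against 6027 to 10132 CPM) and cell cycle genes in 10 of 10 (42.7 to 122 CPM against 457 to 541 CPM). Keratinocyte genes rose in 6 of 10 cases and fell in 2, so the labelled tissue carries its defining markers in both genotypes. No gene of these lists was at 0 in every library.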

How the data were processed

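RNA from snap-frozen skin was polyA-selected, made into unstranded libraries and sequenced as 50-cycle single-end reads, per the labels' protocols. For each mouse the authors deposited whole-number read counts per gene symbol and FPKM values (reads scaled to transcript length and library size). Per the submitters' processing notes TopHat2, SAMtools, HTSeq, Cufflinks 2.2.1 and the builds GRCm38 and mm10 were used, in roles that the notes leave out. How reads with several matching genes were counted is not stated there.

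The counts were tested with edgeR 4.0.16 (R 4.3.3). Its filterByExpr on genotype (minimum count 10) kept 14861 genes, TMM factors scaled the libraries, and genotype was tested by quasi-likelihood F with sex as covariate. Within-sex effects and the interaction came from a model of the genotype by sex means. P-values were adjusted by Benjamini-Hochberg across the 14861 genes and called below 0.05, and SE was derived from the fold change and its F. The common biological coefficient of variation was 0.244. CPM were computed from the counts with the same factors. Counts of 42 or more per library stand behind every member value. The labels call each library a mouse of its genotype and give no litter, so p-values measure the spread between these mice.

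Alternatives were DESeq2 1.42.0, other scalings, no filter, genotype alone, limma 3.58.1 (voom, and trend on log2 of FPKM plus 1 or 0.1), each sex alone, each library left out, and, added after seeing the data, Klk6+ 3 and Klk6+ 5 left out together. The scripts were tested on simulated data. The members and the gene lists were chosen with earlier results of these data known. All 10 members and all 10 other core loop genes analysed are named, and up to 4 of each further clock list by smallest p. A result for 1 list gene is not reported here. Of 140 list genes 3 had no matching symbol and 2 matched through a synonym (Noct as Ccrn4l, Rack1 as Gnb2l1). Sequences and motif shares came from the RefSeq promoter table (GRCm38.p6).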

Additional observations from a re-analysis of the deposited data

Results flagged for a closer look

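Among 40 sets of 5 libraries examined (each named loop gene in each genotype), 2 held a library far from the other 4, and about 1 in 20 such sets is marked this way by chance. Both were WT 2. Arntl stood at 27.0 CPM in WT 2, and the gap to the next WT library made up 0.747 of the WT range, against a critical value of 0.71. Clock, the gene of its partner, stood at 63.5 CPM in WT 2, with a gap of 0.906 of the range.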

How the results depend on the processing

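Of 220 values of the 10 members under 22 alternatives, 215 kept their direction and their side of the threshold, as did 210 of 220 values of the other core loop genes. The count of members higher in Klk6+ was 0 with the male libraries alone, and 1 to 2 when single libraries were left out, the 2 being Arntl and, without Klk6+ 4, Bhlhe40. The count of lower members was 7 throughout, except 5 with the female libraries alone. Other core loop genes called higher numbered 2 with the male libraries alone, where Cry1 (0.59, adjusted p = 0.0706 by edgeR) and Nfil3 (0.74, adjusted p = 0.123) were not called. Npas2 ran from -0.51 to 0.22 when single libraries were left out, turning positive without WT 2, and Rora was 0.16 in the female libraries alone (adjusted p = 0.424 by edgeR), neither being called. Over all alternatives Dbp ran from -4.37 to -3.72, Cry2 from -2.18 to -1.78, and Hlf from -4.12 to -2.63, the smallest on FPKM plus 1, which understates changes of low genes. The other scalings gave medians over all genes between -0.0595 and -0.000215 in place of 0.0401, and the share of called genes that were higher in Klk6+ was 46.8% to 50% under them in place of 51.8%.

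With 5 mice per genotype, 2 of them female, small differences in sex or interaction are not detectable. No paired analysis was possible because the labels give no replicate numbers; those used here were assigned within each genotype and tie no mice together. The cause of each difference between settings was not tested.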
